A study of Homo sapiens with 17 samples.

Results

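The genes described here are the transcription factor ATF4, stress factors linked to it, enzymes of amino acid synthesis that ATF4 is known to switch on, and the cytosolic aminoacyl-tRNA synthetases. The list holds 39 genes, and the members were taken by symbol. Each was represented by the probe set with the highest mean over 17 arrays among those annotated to that gene alone. The members and the other gene lists below were chosen with earlier results of these data known, so their counts are descriptive. Of the 39 members, 37 were measured among 19775 genes: 23 of the 24 ATF4 response genes and 14 of the 15 synthetases. GPT2 and MARS1 had no probe set annotated to them alone and were not analysed here.

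The cells were L363, a human multiple myeloma cell line, cultured for 48 hours and measured as total RNA on 17 oligonucleotide arrays. The 6 groups were 0.5 uM MS275 (an inhibitor of class I histone deacetylases), 1 nM rapamycin (an inhibitor of the kinase mTOR, within mTOR complex 1), 10 nM rapamycin, 1 nM rapamycin with 0.5 uM MS275, 10 nM rapamycin with 0.5 uM MS275, and untreated control cells. Each group had 3 arrays except 10 nM rapamycin with MS275, which had 2. The labels name no vehicle for the control and do not say whether replicates were separate cultures, so p-values measure the spread between arrays, which may be technical. All values come from 1 cell line.

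ATF4 is a transcription factor whose protein is made when the initiation factor eIF2 is phosphorylated by stress kinases, and mTOR complex 1 also raises its translation. With partner factors it binds promoters that carry the CCAAT-enhancer binding protein and ATF response element, and so switches on amino acid transporters, enzymes of serine, asparagine and proline synthesis, and the enzymes that load amino acids onto tRNA. Plasma cells and myeloma cells secrete large amounts of immunoglobulin and depend on these supplies.

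The promoters of the members were searched for TGATGNAA, the core of that response element, on both strands, from 250 bases before to 50 bases after the RefSeq start. The reverse form reads TTNCATCA. A RefSeq promoter of GRCh38.p14 was at hand for 31 of the 39 members. The motif was found in 10 of these 31 (32.3%) and in 1003 of 27305 promoters of all genes (3.67%). It was found in 6 of 12 synthetase promoters (AARS1, CARS1, IARS1, MARS1, NARS1 and TARS1) and in 4 of the 19 others (ASNS, ATF3, CHAC1 and GOT1). A match describes letters, not binding. The 6 matches that lie before the start are shown because they belong to genes whose signals are followed below, with capitals marking the motif and each sequence read on the strand of its gene.
ASNS: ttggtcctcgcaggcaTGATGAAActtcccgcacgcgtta
ATF3: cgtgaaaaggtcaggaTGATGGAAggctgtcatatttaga
CHAC1: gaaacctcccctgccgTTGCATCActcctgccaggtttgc
GOT1: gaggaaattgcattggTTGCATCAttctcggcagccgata
AARS1: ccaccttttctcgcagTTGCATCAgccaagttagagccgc
IARS1: ccgcattttcagcgcgTTGCATCAcctcc

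In these 6 promoters the motif began 68 bases before the start in ASNS, 191 in ATF3, 209 in CHAC1, 198 in GOT1, 187 in AARS1 and 13 in IARS1. ASNS and ATF3 carried the forward form and the other 4 the reverse form TTGCATCA. The stretches lie at chr7:97872453-97872492 (minus strand) for ASNS, chr1:212565200-212565239 (plus strand) for ATF3, chr15:40953246-40953285 (plus strand) for CHAC1, chr10:99430799-99430838 (minus strand) for GOT1, chr16:70289670-70289709 (minus strand) for AARS1 and chr9:92293698-92293726 (minus strand) for IARS1.

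Array medians lay between 5.09 and 5.36 on the log2 scale. The arrays of replicate 1 with 1 nM rapamycin and MS275 and of replicate 1 of the untreated cells had a narrower spread of values (SD 2.15 and 2.14) than the other 15 arrays (2.27 to 2.37), so counts are also given without these 2 arrays. The 8 plasma cell markers averaged 8.09 (CD38) to 12.59 (MZB1) over all arrays. Among markers of B cells, T cells, myeloid, epithelial, fibroblast and red cells, CD22 was the highest at 7.09 and EPCAM the lowest at 2.72. Against untreated cells by limma, the plasma cell marker CD38 was lower in all 4 groups with rapamycin (-1.49, -1.36, -0.90 and -1.33 with 1 nM, 10 nM, MS275 plus 1 nM and MS275 plus 10 nM), and SDC1, another, in the last of these (-1.45, adjusted p = 0.0495). The myeloid marker CSF1R was higher with MS275 alone (1.00) and with MS275 plus 1 nM rapamycin (0.91). Their part in the members' changes was not tested.

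Every member that passed the test was lower with treatment, and none was higher. Each treatment was compared with untreated cells by limma over all genes, and a gene was called at a Benjamini-Hochberg adjusted p under 0.05. MS275 alone lowered 1 of 37 members, CBS, against 0.455% of all genes lower and 1.49% called in either direction. Rapamycin alone called 0 of 37 members at 1 nM and 0 at 10 nM by limma, where 0.101% and 0.435% of all genes were called, and 12 and 11 members had an unadjusted p under 0.05, all lower (8.05% and 6.96% of all genes in either direction). The shares of all genes lower were 0.0809% and 0.369%. Rapamycin with MS275 lowered 4 members at 1 nM (PHGDH, PSAT1, SHMT2 and GOT1), against 1.58% of all genes lower and 2.7% called. At 10 nM with MS275 6 members were lower (PHGDH, SHMT2, GOT1, ALDH18A1, CBS and GARS1), against 2.24% of all genes lower and 3.3% called. In bulk RNA, fewer cells with a transcript and less of it per cell cannot be told apart.

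Most members had negative changes in every treatment, called or not. The median log2 change of the 37 members was -0.40 with MS275, where that of all genes was -0.05. It was -0.55 for the lower rapamycin dose (all genes -0.12) and -0.47 for the higher (all genes -0.07). In the combinations it was -0.69 at 1 nM (all genes 0.02) and -0.66 at 10 nM (all genes -0.08). Changes were negative in 33, 33, 33, 35 and 34 of the 37 members in these 5 comparisons, against 56.9%, 65.1%, 60.7%, 47.0% and 59.7% of all genes. All 5 comparisons share the same 3 control arrays.

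**Figure D1:**
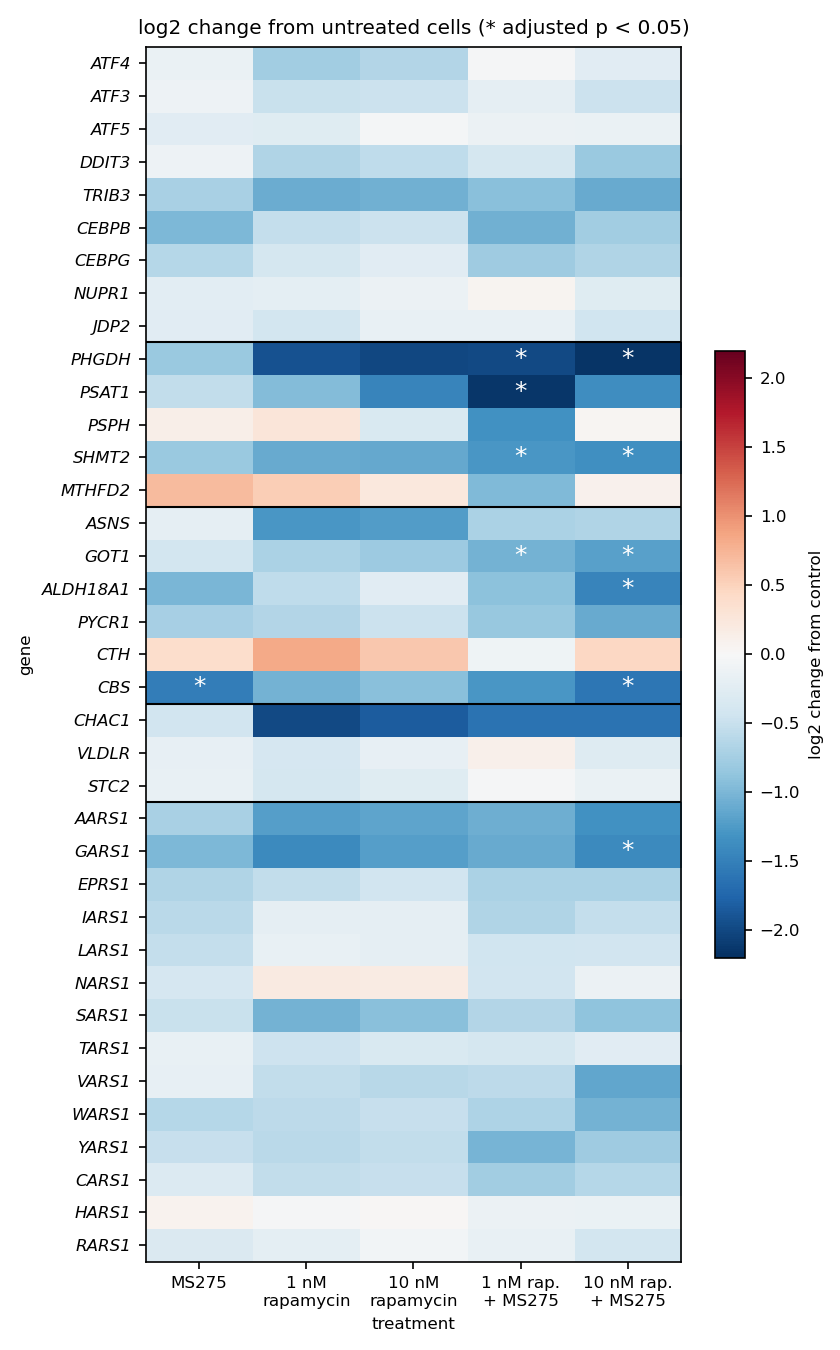
Colour gives the log2 change from untreated cells for 37 genes (down the page, with lines between factors, serine and one-carbon enzymes, other amino acid enzymes, other targets and synthetases) in 5 treatments (across), and a star marks an adjusted p under 0.05. Blue, a lower signal, fills most cells, and all 11 stars lie on blue cells.

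These counts depended on single arrays. With MS275 alone the count was 0 when control replicate 3, any MS275 array, any array of either rapamycin dose alone, or replicate 2 of 1 nM rapamycin with MS275 was left out, and 2 without replicate 1 of the last group. With rapamycin alone, leaving out control replicate 2 raised the count to 5 at 1 nM and to 4 at 10 nM. For 1 nM rapamycin with MS275 it was 0 without control replicate 3, 1 without replicate 1 or replicate 2 of the treated cells and 2 without their replicate 3. For 10 nM rapamycin with MS275 it was 1 without control replicate 3 or without either treated array, and 2 without control replicate 1 or replicate 1 of 1 nM rapamycin. Without both narrow arrays the counts were 2 with MS275, 0 and 1 with 1 and 10 nM rapamycin, 2 and 4 with MS275 and 1 or 10 nM rapamycin. With the replicate number as a block, which the arrays of these groups followed, MS275 lowered 4 members (CBS, ALDH18A1, EPRS1 and GARS1), 1 nM rapamycin 2 (GARS1 and PHGDH) and 1 nM rapamycin with MS275 12. Both narrow arrays carry replicate number 1, and no fit used the block without them. Shares of all genes called are not given for the fits of this paragraph, so these counts cannot be set against one.

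Over both MS275 states, the 4 groups with rapamycin were set against MS275 alone and untreated cells. Rapamycin lowered 6 of 37 members in this comparison by limma: PHGDH, PSAT1, SHMT2, GOT1, CHAC1 and GARS1, where 1.94% of all genes were lower and 2.35% were called. MS275, over all rapamycin levels, lowered 3 others: ALDH18A1, CBS and IARS1, where 3.59% of all genes were lower and 8.13% called. No member was called in both comparisons, which with 6 and 3 calls does not show that the drugs acted on separate members. The share of all genes called in both is not given here. The difference between the effects of both drugs, a comparison added after the data were seen, passed the test only for ASNS among the 37 members, at -1.18 ± 0.30 (SE, adjusted p = 0.0392), where 4.35% of all genes were called.

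The rapamycin count was 1 without control replicate 3, MS275 replicate 1 or MS275 replicate 3. It was 2 without replicate 1 of 1 nM rapamycin, of 10 nM rapamycin or of 10 nM rapamycin with MS275. It was 3 without control replicate 1, replicate 2 or 3 of 1 nM rapamycin, or replicate 2 of 10 nM rapamycin or of 1 nM rapamycin with MS275, and 3 without both narrow arrays. PHGDH stayed past the threshold with each of the 17 arrays left out in turn. The calls on GOT1, SHMT2, PSAT1, CHAC1 and GARS1 stayed in 14, 9, 4, 4 and 4 of those 17 fits. The MS275 count was 6 without control replicate 2, and ALDH18A1 stayed past the threshold whichever array was left out.

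**Figure D2:**
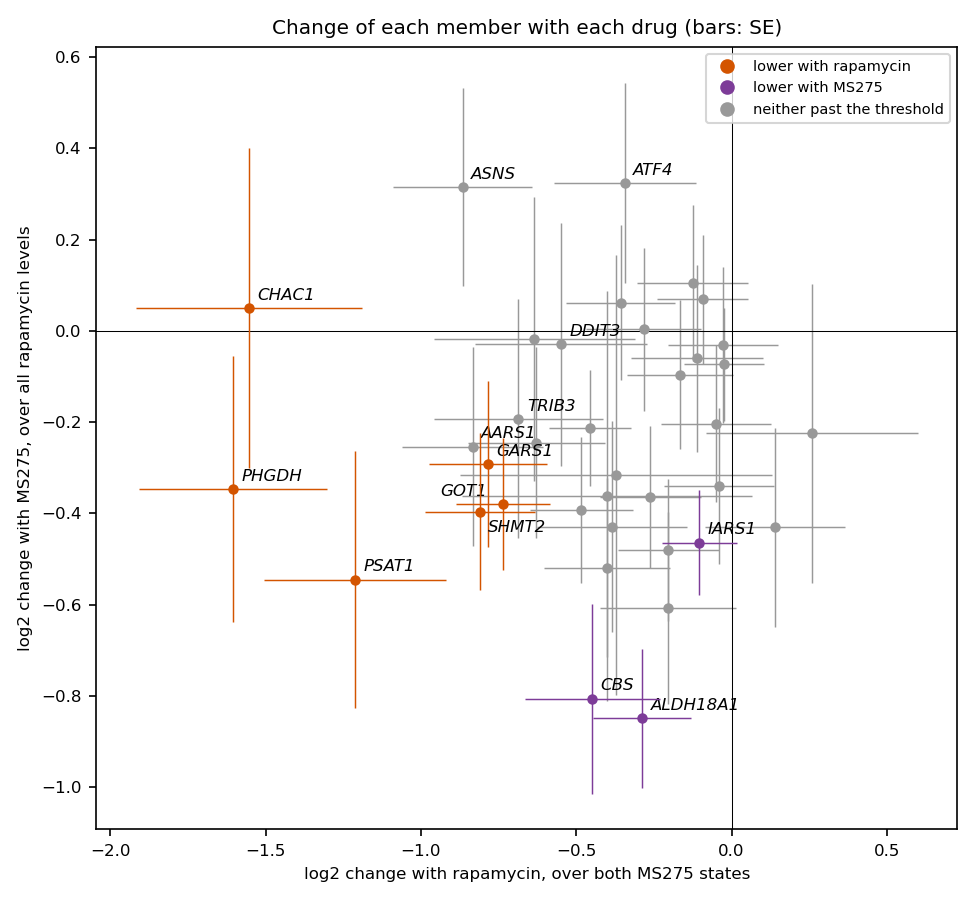
Each point is 1 of 37 genes, with its log2 change with rapamycin over both MS275 states (across) and with MS275 over all rapamycin levels (up), and bars of 1 SE. The 6 genes lower with rapamycin lie to the left, with PHGDH at -1.60 and CHAC1 at -1.55, and the 3 lower with MS275 lie at the bottom, with ALDH18A1 at -0.85.

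Among the 9 transcription factors and regulators, 0 were called in any comparison with control by limma, and 2, 1, 1, 2 and 2 had an unadjusted p under 0.05 with MS275, 1 nM and 10 nM rapamycin, and 1 nM and 10 nM rapamycin with MS275, where 10.8%, 8.05%, 6.96%, 12.6% and 14.2% of all genes had one. ATF4 itself had log2 signals of 12.28, 11.28 and 12.23 with MS275, 11.49, 11.13 and 11.35 with 1 nM rapamycin, 11.51, 11.26 and 11.55 with 10 nM rapamycin, 12.32, 11.55 and 12.28 with MS275 plus 1 nM rapamycin, 11.56 and 12.12 with MS275 plus 10 nM rapamycin, and 12.45, 11.15 and 12.65 in untreated cells. All 6 arrays with rapamycin alone lay below untreated replicates 1 and 3 and close to untreated replicate 2, while the arrays with MS275 overlapped the untreated ones. The change was -0.76 ± 0.37 with 1 nM rapamycin (SE, limma adjusted p = 0.624) and -0.03 ± 0.37 when MS275 was added to that dose (adjusted p = 0.993). Their difference, the addition of MS275 to 1 nM rapamycin, was 0.73 with a 95% interval of -0.06 to 1.51.

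DDIT3 encodes CHOP, a factor induced by ATF4 under lasting stress. Its log2 signals were 8.44, 7.03 and 8.09 with MS275, 7.26, 7.24 and 7.40 with 1 nM rapamycin, 7.32, 7.15 and 7.77 with 10 nM rapamycin, 8.14, 7.08 and 7.52 with MS275 plus 1 nM rapamycin, 6.90 and 7.42 with MS275 plus 10 nM rapamycin, and 8.96, 6.99 and 7.96 in untreated cells. The untreated arrays spanned nearly the whole range of the gene, and the largest of its 5 changes was -0.81 ± 0.49 with 10 nM rapamycin and MS275 (SE, limma adjusted p = 0.526). TRIB3, a pseudokinase that restrains ATF4 and CHOP, changed by -0.71 to -1.10 in the 5 comparisons, none past the test. CEBPB and CEBPG are partner factors of the response, and both were lower on average with MS275 alone than with rapamycin alone, with no call against untreated cells. CEBPB averaged 8.81 with MS275 and 9.80 in untreated cells, a difference of -0.99 ± 0.35 (SE, adjusted p = 0.234 by limma). ATF5, NUPR1 and JDP2 stayed within -0.43 to 0.05 of untreated cells.

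Other probe sets of ATF3 and ATF5 gave other values. ATF3, a stress factor that ATF4 induces, has 3 probe sets, and the one used changed by -0.36 with rapamycin and 0.06 with MS275 over the grouped comparisons. A second ATF3 probe set of nearly the same mean signal (5.92, against 6.05) changed by -1.76 with rapamycin and 1.33 with MS275 (limma adjusted p = 0.252 for both when all 41091 singly annotated probe sets were fitted). ATF5, a relative of ATF4 under the same translational control, has 4 probe sets. The one used changed by -0.07 with MS275, while 2 others changed by -1.09 and -0.60, both past the test (adjusted p = 0.00914 and 0.0257 by limma over all probe sets).

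The serine and one-carbon enzymes held the largest fall. PHGDH, the first enzyme of serine synthesis, had log2 signals of 10.60, 9.02 and 10.48 with MS275, 8.78, 8.81 and 9.21 with 1 nM rapamycin, 8.55, 8.75 and 9.24 with 10 nM rapamycin, 8.99, 8.22 and 9.36 with MS275 plus 1 nM rapamycin, 8.27 and 9.12 with MS275 plus 10 nM rapamycin, and 11.42, 9.75 and 11.37 in untreated cells. All 11 arrays with rapamycin lay below all 3 untreated arrays, and 7 of the 11 below all 3 MS275 arrays. Rapamycin lowered PHGDH by 3.04-fold over both MS275 states (log2 change -1.60 ± 0.30, SE, limma adjusted p = 0.0107), and this was -1.48 without the narrow arrays (adjusted p = 0.0356). The change was -1.99 with 1 nM and -2.15 with 10 nM rapamycin and MS275 (adjusted p = 0.0428 and 0.0442), calls that were lost without the narrow arrays. With rapamycin alone PHGDH averaged 8.93 at 1 nM and 8.85 at 10 nM and 10.84 in untreated cells, differences that did not pass (adjusted p = 0.179 and 0.110).

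PSAT1, the aminotransferase of the second step, had log2 signals of 8.91, 8.45 and 8.89 with MS275, 7.89, 8.47 and 8.63 with 1 nM rapamycin, 7.49, 8.14 and 7.84 with 10 nM rapamycin, 5.95, 7.48 and 7.99 with MS275 plus 1 nM rapamycin, 7.39 and 8.43 with MS275 plus 10 nM rapamycin, and 8.48, 9.59 and 9.78 in untreated cells. The lowest value belonged to 1 of the narrow arrays, and the other narrow array was the lowest of the untreated ones. PSAT1 fell by 2.14 with 1 nM rapamycin and MS275 (limma adjusted p = 0.0223), and without both narrow arrays the change was -1.95 (adjusted p = 0.0121). Without those arrays it was also lower with 10 nM rapamycin alone (-1.86, adjusted p = 0.0238) and with 10 nM rapamycin and MS275 (-1.77, adjusted p = 0.0140). A second PSAT1 probe set changed by -1.50 with rapamycin over both MS275 states, where the one used changed by -1.21.

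SHMT2, the mitochondrial enzyme that splits serine into glycine and a one-carbon unit, had log2 signals of 12.17, 11.38 and 11.61 with MS275, 11.42, 11.33 and 11.49 with 1 nM rapamycin, 11.18, 11.30 and 11.74 with 10 nM rapamycin, 11.34, 11.02 and 11.40 with MS275 plus 1 nM rapamycin, 11.12 and 11.25 with MS275 plus 10 nM rapamycin, and 12.78, 11.78 and 13.03 in untreated cells. Each of the 11 arrays with rapamycin lay below the lowest untreated array, and the MS275 arrays overlapped both. SHMT2 fell with rapamycin over both MS275 states by 0.81 ± 0.18 (SE, limma adjusted p = 0.0262), a call lost without the narrow arrays. Another of its 3 probe sets had a lower signal and larger changes, -2.05 with 1 nM and -1.86 with 10 nM rapamycin and MS275 (adjusted p = 0.00374 and 0.0131 over all probe sets).

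PSPH, which completes serine synthesis, and MTHFD2, a mitochondrial folate enzyme, took their extreme values from the narrow arrays. PSPH was 3.79 in replicate 1 of 1 nM rapamycin with MS275 and 5.26 in replicate 1 of untreated cells, against 6.34 to 8.04 on the other 15 arrays. MTHFD2 was 7.08 and 7.73 on the same arrays, against 9.21 to 11.20 on the others. For MTHFD2 the departure from additivity at 1 nM was -2.22 with all arrays and -0.24 without the narrow ones, and CTH, an enzyme of cysteine synthesis, behaved alike, with -1.30 and -0.08.

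**Figure D3:**
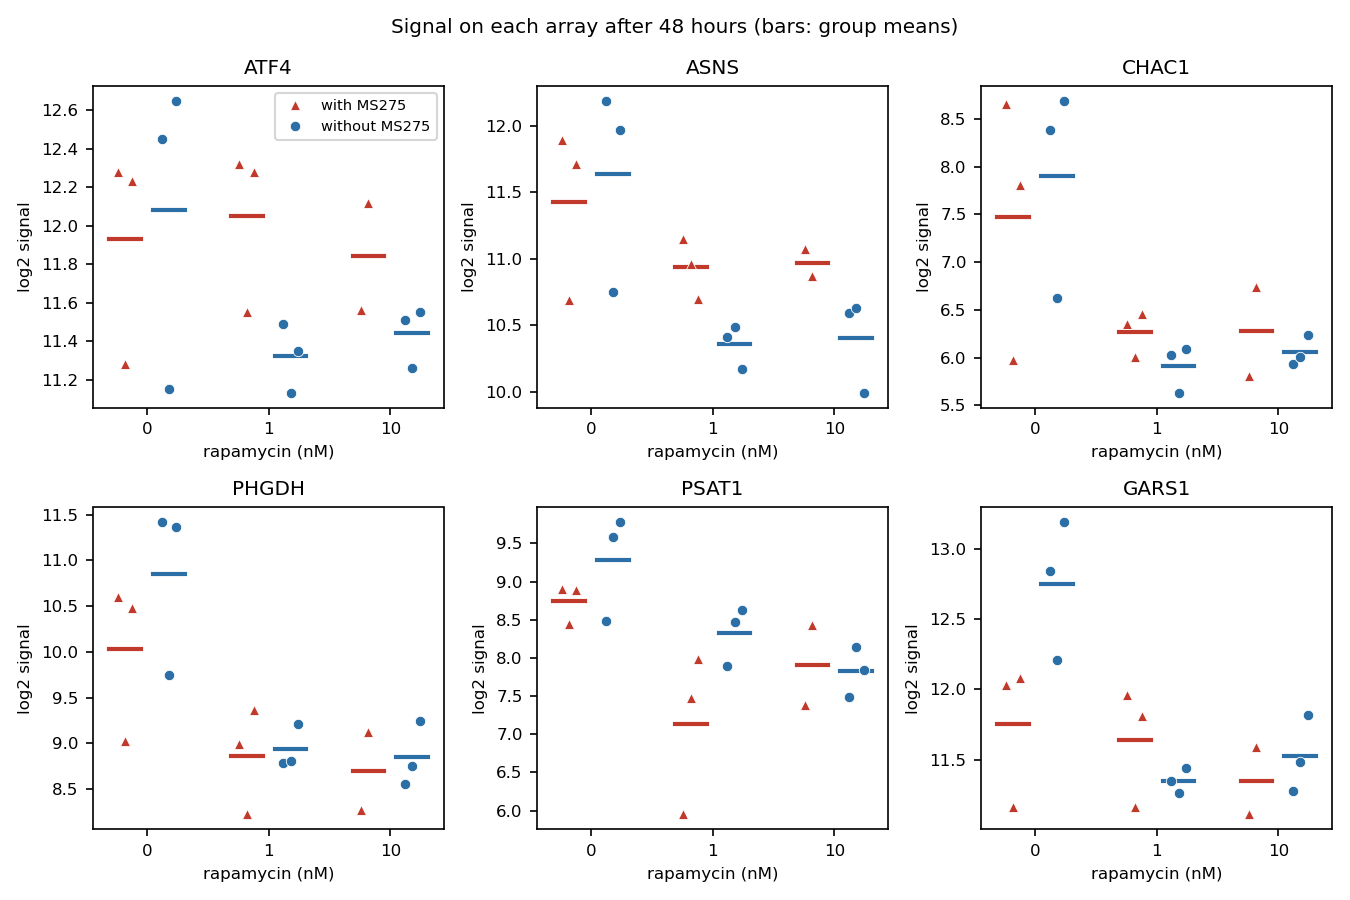
Log2 signal on each array is plotted against rapamycin dose (0, 1 and 10 nM) for 6 genes, with triangles for cells with MS275, circles for cells without it, and bars for group means. PHGDH, CHAC1 and ASNS are lower at both doses than at 0 nM in most arrays, and the untreated and MS275 arrays are spread widely, with CHAC1 between 5.97 and 8.69.

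Of the 6 measured enzymes of asparagine, aspartate, proline and cysteine, 0, 0, 1 and 3 were lower with 1 nM rapamycin, 10 nM rapamycin, and 1 nM and 10 nM rapamycin with MS275, and 1 with MS275 alone. The shares of all genes lower were 0.0809%, 0.369%, 1.58%, 2.24% and 0.455% in the same order. ASNS makes asparagine and is a textbook ATF4 target. Its log2 signals were 11.89, 10.69 and 11.71 with MS275, 10.41, 10.49 and 10.17 with 1 nM rapamycin, 10.59, 10.63 and 9.99 with 10 nM rapamycin, 11.15, 10.96 and 10.70 with MS275 plus 1 nM rapamycin, 11.07 and 10.87 with MS275 plus 10 nM rapamycin, and 12.19, 10.75 and 11.97 in untreated cells. All 6 arrays with rapamycin alone lay below all other arrays. ASNS was -1.27 with 1 nM and -1.23 with 10 nM rapamycin, yet -0.70 and -0.66 when MS275 was present, none past the test by limma (adjusted p = 0.254, 0.226, 0.466 and 0.520). Over both MS275 states the rapamycin change was -0.87 ± 0.22 (SE, adjusted p = 0.0639) and the MS275 change over all rapamycin levels was 0.32 ± 0.22 (adjusted p = 0.557). The call on their difference stayed in 5 of the 17 fits with 1 array left out, with adjusted p between 0.00798 and 0.181, and was lost without control replicate 3, MS275 replicate 1 or 3, replicate 2 of 1 nM rapamycin with MS275, and each array of 1 nM rapamycin, 10 nM rapamycin and 10 nM rapamycin with MS275.

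GOT1, the cytosolic aspartate aminotransferase, had log2 signals of 8.80, 8.32 and 8.80 with MS275, 8.20, 8.29 and 8.53 with 1 nM rapamycin, 8.03, 8.21 and 8.46 with 10 nM rapamycin, 7.60, 8.01 and 8.37 with MS275 plus 1 nM rapamycin, 7.53 and 8.15 with MS275 plus 10 nM rapamycin, and 8.78, 8.97 and 9.36 in untreated cells. The rapamycin arrays did not overlap the untreated ones. GOT1 fell by 0.74 ± 0.15 with rapamycin over both MS275 states (SE, limma adjusted p = 0.0161), and its change was -1.04 with 1 nM and -1.20 with 10 nM rapamycin and MS275 (adjusted p = 0.0302 and 0.0256). The grouped call was lost without control replicate 3 or MS275 replicate 1 or 3, with adjusted p up to 0.0624.

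ALDH18A1 and CBS followed MS275 rather than rapamycin in their calls, although the difference between the drugs' effects did not pass for either (limma adjusted p = 0.207 and 0.737). ALDH18A1, the first enzyme of proline synthesis, had log2 signals of 9.83, 9.50 and 9.45 with MS275, 10.29, 9.74 and 10.11 with 1 nM rapamycin, 10.54, 10.01 and 10.47 with 10 nM rapamycin, 10.11, 9.34 and 9.65 with MS275 plus 1 nM rapamycin, 8.75 and 9.53 with MS275 plus 10 nM rapamycin, and 10.78, 10.37 and 10.65 in untreated cells. At each rapamycin dose, the arrays with MS275 lay mostly below those without it. ALDH18A1 was 1.80-fold lower with MS275 over all rapamycin levels (log2 change -0.85 ± 0.15, SE, adjusted p = 0.00279). A second probe set of the gene was lower too (-0.59, adjusted p = 0.0173 over all probe sets).

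CBS, which starts the route from homocysteine to cysteine, had log2 signals of 9.22, 9.04 and 8.69 with MS275, 9.46, 9.84 and 9.07 with 1 nM rapamycin, 9.33, 9.99 and 9.42 with 10 nM rapamycin, 9.71, 9.36 and 8.60 with MS275 plus 1 nM rapamycin, 9.40 and 8.42 with MS275 plus 10 nM rapamycin, and 11.06, 10.15 and 10.29 in untreated cells. Every treated array lay below the lowest untreated array. CBS fell by 1.52 with MS275 (limma adjusted p = 0.0439), and its change was -1.59 with 10 nM rapamycin and MS275 (adjusted p = 0.0376). The MS275 call stayed in 4 of the 17 fits with 1 array left out (adjusted p 0.0304 to 0.196), and both calls were lost without the narrow arrays. RefSeq lists a near-identical copy of CBS on the same chromosome, so the signal may combine both. PYCR1, the last enzyme of proline synthesis, changed by -0.47 to -1.11 with no call.

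CHAC1 degrades glutathione and is induced by ATF4 with CHOP. Its log2 signals were 8.65, 5.97 and 7.81 with MS275, 6.03, 5.63 and 6.09 with 1 nM rapamycin, 5.93, 6.01 and 6.24 with 10 nM rapamycin, 6.35, 6.01 and 6.46 with MS275 plus 1 nM rapamycin, 5.81 and 6.74 with MS275 plus 10 nM rapamycin, and 8.38, 6.62 and 8.69 in untreated cells. Replicate 2 of MS275 and of untreated cells lay near the rapamycin arrays and well below replicates 1 and 3 of the same groups. CHAC1 was 2.94-fold lower with rapamycin over both MS275 states (log2 change -1.55 ± 0.36, SE, limma adjusted p = 0.0367), a call that stayed in 4 of the 17 fits with 1 array left out (adjusted p 0.00370 to 0.122) and was lost without the narrow arrays. STC2, a secreted glycoprotein, and VLDLR, a lipoprotein receptor, stayed within -0.38 to 0.11 of untreated cells. VLDLR was near the low end of the array's range on all 17 arrays (2.30 to 3.38).

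Among the 14 measured synthetases, 0, 0, 0, 0 and 1 were lower by limma with MS275, 1 nM rapamycin, 10 nM rapamycin, and 1 nM and 10 nM rapamycin with MS275, and 3, 4, 3, 6 and 8 had an unadjusted p under 0.05. Of all genes, 0.455%, 0.0809%, 0.369%, 1.58% and 2.24% were lower in this order, and 10.8%, 8.05%, 6.96%, 12.6% and 14.2% had such an unadjusted p. The median changes of the synthetases in this order were -0.50, -0.55, -0.46, -0.66 and -0.67. Those of all genes were -0.05, -0.12, -0.07, 0.02 and -0.08. GARS1, the glycyl-tRNA synthetase, was the 1 that passed. GARS1 had log2 signals of 12.03, 11.16 and 12.08 with MS275, 11.35, 11.26 and 11.44 with 1 nM rapamycin, 11.28, 11.48 and 11.82 with 10 nM rapamycin, 11.96, 11.16 and 11.81 with MS275 plus 1 nM rapamycin, 11.11 and 11.59 with MS275 plus 10 nM rapamycin, and 12.84, 12.21 and 13.19 in untreated cells. Every treated array lay below the lowest untreated one. Its change was -1.40 with 10 nM rapamycin and MS275 (adjusted p = 0.0355) and -0.78 with rapamycin over both MS275 states (adjusted p = 0.0422), and both calls were lost without the narrow arrays.

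With the replicate block, GARS1 was also lower with 1 nM rapamycin (-1.40, limma adjusted p = 0.0291), and 5 synthetases were lower with MS275 plus 1 nM rapamycin: CARS1, EPRS1, GARS1, IARS1 and YARS1, with changes of -1.10 to -0.67 (adjusted p between 0.0189 and 0.0457). MS275 alone lowered EPRS1 and GARS1 in that fit (adjusted p = 0.0431 and 0.0456). Its value with 1 nM rapamycin and MS275 lay 1.28 ± 0.43 above the sum of both single changes (SE, adjusted p = 0.682). AARS1, the alanyl-tRNA synthetase, had changes of similar size that did not pass, -0.83 ± 0.23 with rapamycin over both MS275 states (SE, adjusted p = 0.0811), a call gained with the block (-0.81, adjusted p = 0.0369). That block value is uncertain, because it includes the 10 nM groups, whose same-numbered arrays did not deviate together with those of every other group. Without the narrow arrays the AARS1 change was -0.745 (limma adjusted p = 0.137). IARS1, the isoleucyl-tRNA synthetase, was called with MS275 and not with rapamycin. It had log2 signals of 11.19, 11.14 and 11.46 with MS275, 11.68, 11.71 and 11.57 with 1 nM rapamycin, 11.70, 11.72 and 11.54 with 10 nM rapamycin, 10.90, 11.32 and 11.33 with MS275 plus 1 nM rapamycin, 11.18 and 11.47 with MS275 plus 10 nM rapamycin, and 11.46, 11.94 and 12.16 in untreated cells. All 8 arrays with MS275 lay below all 6 arrays with rapamycin alone.

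IARS1 fell by 0.46 ± 0.12 with MS275 over all rapamycin levels (SE, limma adjusted p = 0.0213), where its rapamycin change was -0.10 ± 0.12 (adjusted p = 0.854). The difference between the drugs' effects on IARS1 was 0.36 and did not pass (adjusted p = 0.334). Leaving out replicate 1 of 10 nM rapamycin with MS275 ended the IARS1 call (adjusted p = 0.0830). Without the narrow arrays the asparaginyl-tRNA synthetase NARS1 was lower as well (-0.50, adjusted p = 0.0153), and IARS1 passed with MS275 alone (-0.78, adjusted p = 0.0160). HARS1, RARS1, LARS1 and TARS1, which load histidine, arginine, leucine and threonine, had rapamycin changes between -0.28 and -0.04 with no call. Without the narrow arrays these were -0.29, -0.12, -0.14 and -0.41, again with no call. SARS1, VARS1 and WARS1 had larger rapamycin changes of -0.63, -0.63 and -0.38 with all arrays, which did not pass either.

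**Figure D4:**
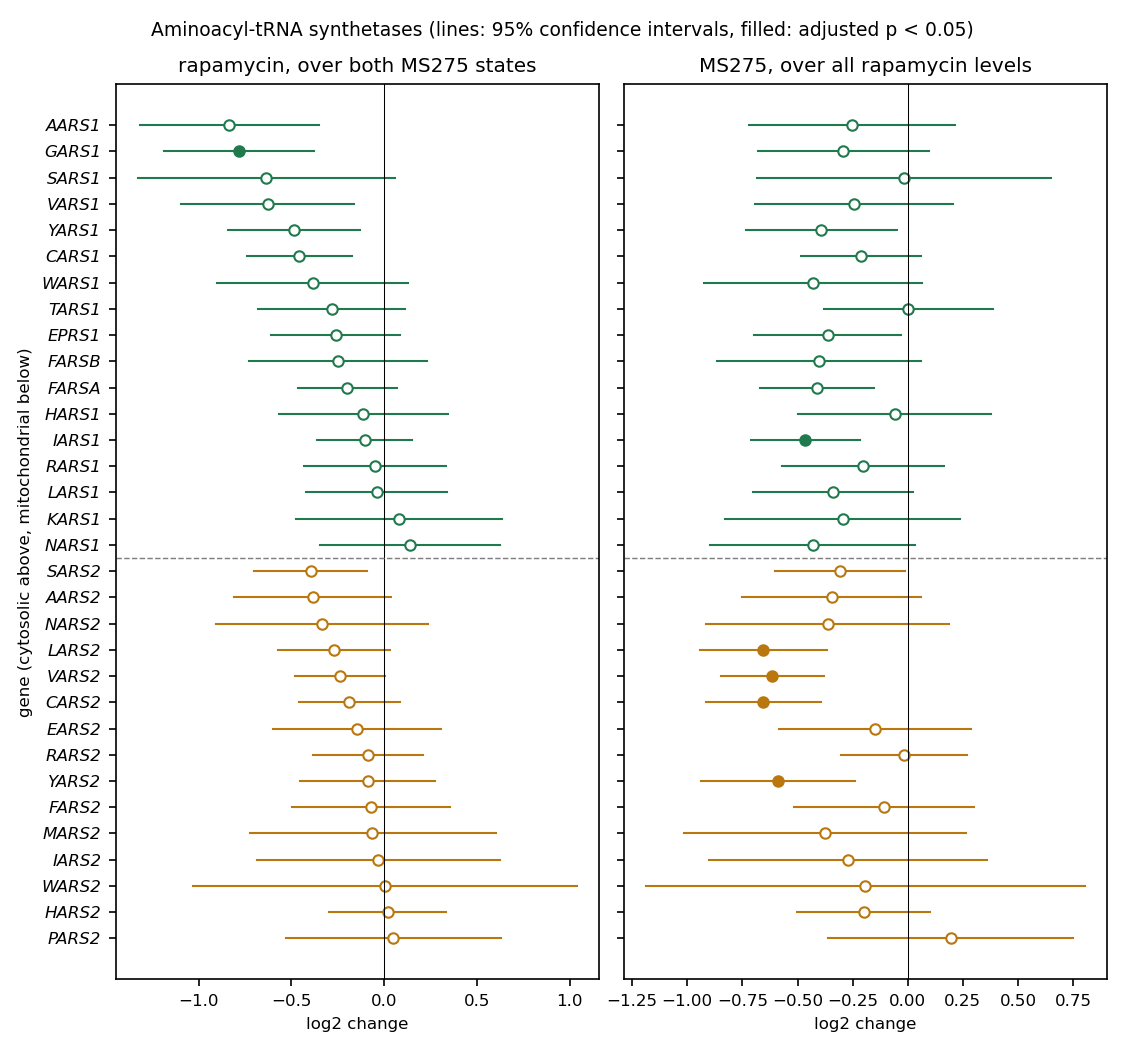
Log2 changes of 17 cytosolic (above the dashed line) and 15 mitochondrial aminoacyl-tRNA synthetases are drawn with 95% confidence intervals for rapamycin over both MS275 states (left) and MS275 over all rapamycin levels (right), with filled points past the threshold. On the left the only filled point is GARS1 at -0.78, and on the right IARS1 and 4 mitochondrial enzymes are filled.

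The mitochondrial synthetases listed here are nuclear genes, separate from the members, whose enzymes charge tRNA inside mitochondria. The list has no glycyl enzyme, and GARS1 was counted only with the cytosolic ones. Of 17 listed, 15 were measured, and 0, 0, 0, 0 and 3 were lower with MS275, 1 nM rapamycin, 10 nM rapamycin, and 1 nM and 10 nM rapamycin with MS275. The shares of all genes lower were 0.455%, 0.0809%, 0.369%, 1.58% and 2.24%. Over both MS275 states rapamycin called 0 of the 15 by limma, with 1 at an unadjusted p under 0.05. MS275 over all rapamycin levels lowered 4 (CARS2, LARS2, VARS2 and YARS2), and the called counts were the same without the narrow arrays. Of all genes, 1.94% were lower and 2.35% called with rapamycin, and 3.59% and 8.13% with MS275, so the MS275 comparison called more genes of any kind. The median rapamycin change was -0.33 in the 14 cytosolic members, -0.09 in the mitochondrial enzymes and -0.04 over all genes. The median MS275 change was -0.27, -0.31 and 0.02 in the same order. LARS2, the leucyl enzyme, fell by 0.65 ± 0.13 with MS275 over all rapamycin levels (SE, adjusted p = 0.00708). Of 8 other cytosolic synthetases and scaffold proteins, 4 were measured and 0 were called by limma against untreated cells. In each combination 1 had an unadjusted p under 0.05, as did 12.6% of all genes at 1 nM and 14.2% at 10 nM. The median change of these 4 was -0.06 with rapamycin over both MS275 states, unlike the -0.33 of the members. It was -0.35 with MS275 over all rapamycin levels. FARSA, a subunit of the phenylalanyl enzyme, was near the threshold with MS275 over all rapamycin levels (-0.41, adjusted p = 0.0505), and passed as lower once the narrow arrays were left out (limma adjusted p = 0.0370) or the block was used (0.0266).

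Adding a second drug to the first called no member by limma. With MS275 added to 1 nM rapamycin, 0 of 37 members passed (1.23% of all genes were called), and 2 had an unadjusted p under 0.05 (12.4% of all genes). With MS275 added to 10 nM rapamycin 0 passed (0.435% of all genes), and 1 had an unadjusted p under 0.05 (7.34%). With rapamycin added to MS275, 0 passed at 1 nM and 0 at 10 nM (0.106% and 0.253% of all genes), and 4 and 3 had an unadjusted p under 0.05 (4.44% and 4.5%). The nearest was ALDH18A1, at -1.20 for 10 nM rapamycin with MS275 less 10 nM rapamycin alone (limma adjusted p = 0.0946). It passed without the narrow arrays (adjusted p = 0.0439). PHGDH differed by -0.08 between 1 nM rapamycin with MS275 and 1 nM rapamycin, with a 95% interval of -1.11 to 0.96, which spans sizeable changes in both directions.

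The departure from additivity passed for 0 of 37 members at 1 nM and 0 at 10 nM by limma, and for 0.0% of all genes. CBS and GARS1 at 1 nM, and 0 members at 10 nM, had an unadjusted p under 0.05 (4.63% and 0.981% of all genes). Its median over the members was 0.47 at 1 nM and 0.24 at 10 nM, against 0.16 and 0.02 over all genes. Between the doses, 10 against 1 nM, 0 members passed without MS275 and 0 with it, with 0.0% of all genes called by limma. None had an unadjusted p under 0.05 either (0.121% and 0.769% of all genes). For PHGDH this difference was -0.09 without MS275, with a 95% interval of -1.12 to 0.95.

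Replicates of the same group differed in the level of the members. In untreated cells their median SD over 3 arrays was 0.66, against 0.40 for all genes, and in MS275 cells 0.37 against 0.23. With rapamycin alone it was 0.18 at 1 nM (all genes 0.17) and 0.24 at 10 nM (all genes 0.22). With MS275 added it was 0.38 at 1 nM (all genes 0.35) and 0.37 over the 2 arrays at 10 nM (all genes 0.2). The untreated group and 1 nM rapamycin with MS275 each include a narrow array, which is part of their spread. Replicate 2 was the low one in MS275 cells, where 28 of 37 members had their lowest value (44.0% of all genes), while the 21 of 37 in untreated cells were closer to the share of all genes (45.8%). The median deviation of the members from their own means over 17 arrays was 0.29, -0.32 and 0.20 in the 3 MS275 arrays and 0.68, 0.12 and 0.87 in the 3 untreated arrays. In untreated cells it was 0.83, -0.04 and 0.87 for the 23 ATF4 response genes and 0.07, 0.19 and 0.92 for the 14 synthetases, so replicate 2 was the lowest for the first set and replicate 1 for the second. What set these arrays apart was not tested.

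**Figure D5:**
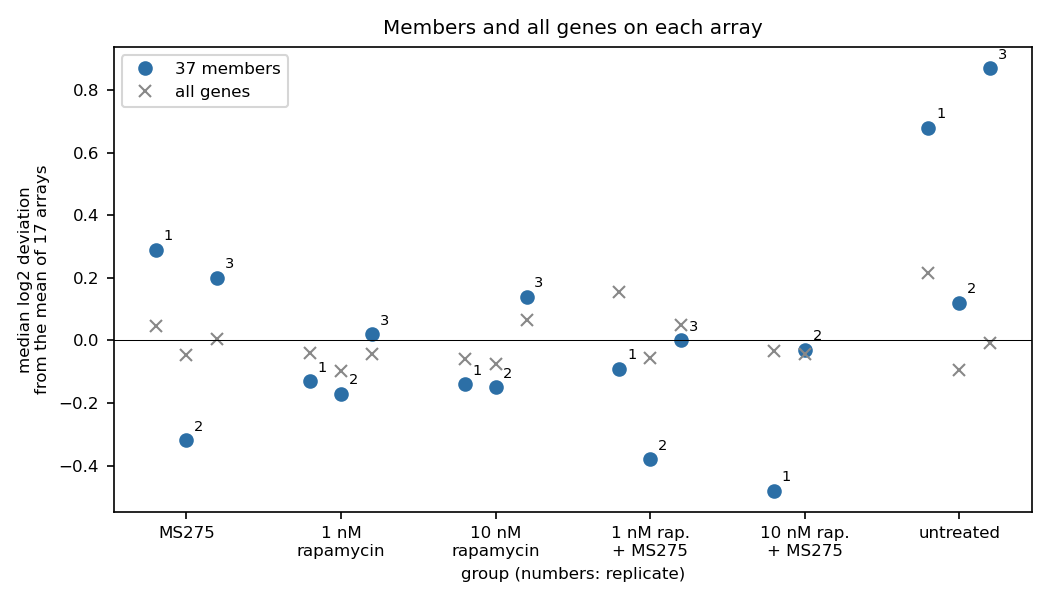
Dots give the median log2 deviation of 37 genes from their own means over 17 arrays, crosses the same for all genes, and numbers the replicate, by group. Untreated replicates 1 and 3 stand at 0.68 and 0.87, untreated replicate 2 at 0.12, and MS275 replicate 2 at -0.32.

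A list of 28 further ATF4 targets, of which 27 were measured, held more calls against untreated cells than the members. The list was drawn up with earlier results of these data known, so its counts do not test whether ATF4 targets respond more than other genes. Of these 27, 2, 4, 5, 10 and 10 were lower with MS275, 1 nM rapamycin, 10 nM rapamycin, and 1 nM and 10 nM rapamycin with MS275, and 0 were higher, against 0.455%, 0.0809%, 0.369%, 1.58% and 2.24% of all genes lower. Without the narrow arrays these counts were 2, 3, 4, 6 and 8, and with the replicate block MS275 lowered 4. SLC7A5 and SLC3A2, the subunits of the large neutral amino acid transporter, were lower in all 5 treatments. The changes of SLC7A5 were -1.70 with MS275, -1.91 with 1 nM and -1.81 with 10 nM rapamycin, and -2.69 and -2.76 with MS275 and 1 nM or 10 nM rapamycin (limma adjusted p between 7.901e-05 and 0.0127). Its lowest untreated array stood at 11.08, above every treated array, of which the highest was 10.19. INHBE, an inhibin subunit induced under stress, changed by -3.40 and -3.85 with 1 nM and 10 nM rapamycin (adjusted p = 0.0284 and 0.0107). When MS275 was present its changes were -3.55 and -3.41 (limma adjusted p = 0.00161 and 0.00417). DDIT4, an inhibitor of mTOR complex 1, changed by -3.96 and -4.01 with 1 nM and 10 nM rapamycin and MS275 (limma adjusted p = 0.00559 and 0.0104). With rapamycin alone DDIT4 changed by -1.65 at 1 nM and -3.36 at 10 nM, neither past the test (limma adjusted p = 0.561 and 0.0514). Without the narrow arrays the first DDIT4 call was lost (-3.61, adjusted p = 0.0517) and the second was not (adjusted p = 0.0361).

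Genes that act before ATF4 were not called against untreated cells. Of 8 genes for the eIF2 kinases, the eIF2 subunits and a phosphatase subunit, 8 were measured and 0 were called by limma with any of the 5 treatments. In the order MS275, 1 nM and 10 nM rapamycin, and 1 nM and 10 nM rapamycin with MS275, 0, 1, 1, 1 and 3 had an unadjusted p under 0.05. Of all genes, 10.8%, 8.05%, 6.96%, 12.6% and 14.2% had one, and 1.49%, 0.101%, 0.435%, 2.7% and 3.3% were called. The median changes of the 8 genes in this order were 0.44, 0.77, 0.72, 0.12 and 0.94. Those of all genes were -0.05, -0.12, -0.07, 0.02 and -0.08. Medians of the 8 genes without the narrow arrays are not given here. EIF2AK4, the eIF2 kinase GCN2, changed by 0.87 with rapamycin over both MS275 states (limma adjusted p = 0.184), and without the narrow arrays it was called higher (0.58, adjusted p = 0.0429). Against untreated cells its changes, in the order above, were 0.569, 1.314, 1.139, 0.785 and 1.371 with all arrays. Without the narrow arrays they were -0.146, 0.599, 0.424, 0.353 and 0.656. EIF2AK4 is named after its values were seen, as is FARSA. The arrays measured RNA, so ATF4 protein and eIF2 phosphorylation were not analysed here.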

How the data were processed

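Per the submitters' processing notes, the deposited log2 values were made with affy and RMA, with no versions recorded there. The authors deposited 1 such log2 value for each of 54613 probe sets on 17 arrays. Of these, 41091 probe sets are annotated to 1 gene, 1801 to several and 11721 to none. Genes were named through Entrez identifiers (41037 probe sets matched to RefSeq), and the probe set with the highest mean stood for its gene. The 6 groups were fitted together in limma 3.58.1 (R 4.3.3, lmFit and eBayes) over 19775 genes, with Benjamini-Hochberg adjustment over all genes and a threshold of 0.05. The code was tested on simulated data. Precision is limited by 2 or 3 arrays a group: over all genes, the median half-width of the 95% interval was 0.54 for 1 nM rapamycin and 0.60 for 10 nM rapamycin with MS275.

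The members and lists were chosen with earlier results of these data known. Per-array values are given for ATF4, ASNS, DDIT3, PSAT1, PHGDH, CHAC1 and every other member called against control or in a grouped comparison. Up to 4 genes of another list could be named, by smallest adjusted p. Same-numbered replicates deviated together (correlations of 0.286 to 0.816) in the pairs of control with MS275, 1 nM rapamycin and 1 nM rapamycin with MS275, but not in every pair with 10 nM rapamycin (-0.162 to 0.398 with control), nor for 10 nM rapamycin with MS275 (-0.743 to 0.386 with the other groups), so that block values with these groups are uncertain. Alternatives were a replicate block, other normalizations, array weights, the median of a gene's probe sets, dim genes left out, fits of the compared arrays only, and each array left out.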

Additional observations from a re-analysis of the deposited data

How the results depend on the processing

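No called change of a member, and no median change of the members against untreated cells, switched sign in any alternative fit. Changes that were not called could switch. MTHFD2 averaged 10.56 with MS275, 10.41 with 1 nM rapamycin and 9.86 in untreated cells. Without the narrow arrays its changes with these treatments were -0.37 and -0.52. PSPH and CTH also switched from higher to lower with MS275. With the replicate block, the members called were 4 with MS275, 2 and 3 with 1 nM and 10 nM rapamycin, and 12 with MS275 plus 1 nM rapamycin. The block also called 1 (ALDH18A1) for 10 nM rapamycin with MS275 against that dose alone, and 3 for the difference between both drugs. Block counts that use a 10 nM group are uncertain, because its replicate numbers did not match those of every other group. Other counts stayed within 1.5 times. Without the 2 narrow arrays they were 2 with MS275, 1 with 10 nM rapamycin, 2 with MS275 plus 1 nM rapamycin, 1 for 10 nM rapamycin with MS275 against that dose alone and 3 for rapamycin over both MS275 states. Array weights gave 12 with MS275, 25 and 19 with 1 nM and 10 nM rapamycin, and 13 and 15 with MS275 and 1 nM or 10 nM rapamycin. They gave 1 for 10 nM rapamycin with MS275 against that dose alone. They also gave 14 for rapamycin, 6 for MS275 over all rapamycin levels and 10 for the difference between both drugs. No share of all genes called is given for these alternative fits, so whether the members gained more calls than other genes cannot be read from the counts. Fits of the compared arrays only called 0 with MS275 and 0 in both combinations, with fewer arrays to estimate the spread. The median of probe sets and quantile normalization each gave 0 with MS275, and the latter gave 0 for the difference between the drugs. With 1 array left out, counts ranged from 0 to 2 with MS275, 0 to 5 and 0 to 4 with 1 nM and 10 nM rapamycin, 0 to 6 and 1 to 9 with MS275 and 1 nM or 10 nM rapamycin, 1 to 7 for rapamycin, 2 to 6 for MS275 over all rapamycin levels and 0 to 3 for their difference; the other comparisons stayed at 0. Of 21 member calls, 2 stayed with every array left out, and 341 of 515 call-by-setting values stayed past the threshold. The causes were not tested.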

Other observations

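When all 41091 singly annotated probe sets were fitted as units of their own (chosen after seeing the data), 70 of them belonged to members. Of these 70, 0, 0, 0, 5 and 6 were lower by limma with MS275, 1 nM and 10 nM rapamycin, and 1 nM and 10 nM rapamycin with MS275, 5 with rapamycin over both MS275 states and 8 with MS275 over all rapamycin levels, where 5 of the 8 were probe sets not used for the gene. In the same order, 0.338%, 0.0633%, 0.156%, 1.27%, 1.8%, 1.26% and 3.16% of all 41091 probe sets were lower. Of the 70, 0 were higher. CARS1, the cysteinyl-tRNA synthetase, was called in this fit through another of its probe sets and not through the one used, at -1.07 with 1 nM rapamycin and MS275 (adjusted p = 0.0292).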
